A study of Saccharomyces cerevisiae x Saccharomyces kudriavzevii with 6 samples.

Results

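The oxidative and general stress defence genes of wine yeast were examined in 2 hybrids of *S. cerevisiae* and *S. kudriavzevii* that fermented must in the cold. They were taken as a list of 45 systematic ORF names, chosen by what the genes do, with earlier results of these data known. The list holds catalases, superoxide dismutases, peroxiredoxins, glutaredoxins, thioredoxins, genes of glutathione metabolism, *DDR2*, *DDR48*, *GRE1* to *GRE3*, *OYE2*, *OYE3*, *YHB1* and the regulators *YAP1*, *SKN7*, *MSN2* and *MSN4*. Of the 45 names, 43 had a row among the 5616 ORFs of the value table, and YCR083W and YMR037C had none. A gene name could be paired with its ORF for 6 of them only: the peroxiredoxin gene *AHP1* (YLR109W), *DOT5* (YIL010W) for a nuclear thiol peroxidase, the glutaredoxin gene *GRX2* (YDR513W), *GRE2* (YOL151W) for a methylglyoxal reductase, and the stress-induced genes *DDR2* (YOL052C-A) and *DDR48* (YMR173W). The others are given by ORF, without a role.

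As background, respiring and fermenting yeast cells form superoxide and peroxides as by-products of metabolism. Superoxide dismutases turn superoxide into hydrogen peroxide, and catalases, peroxiredoxins and peroxidases break the peroxides down. Glutaredoxins and thioredoxins return oxidized protein thiols to their reduced state, drawing on glutathione and NADPH. Yap1 and Skn7 switch on genes of the oxidative response, while Msn2 and Msn4 act on a wider set of genes that many stresses induce, *DDR2* among them.

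The hybrids VIN7 and W27 are allotriploid, and both lack parts of the *S. kudriavzevii* genome. Each strain fermented Tempranillo must at 12°C and at 28°C, and cells were taken at the start of exponential growth. RNA from both temperatures was hybridised together on dual-colour arrays, 3 for each hybrid and called A, B and C, spotted with PCR products of ORFs of *S. cerevisiae* S288c. A spot therefore read the alleles of both parents together, and a change of expression could not be assigned to either allele. Each value is a log2 ratio of 12°C over 28°C, so that 1 stands for a 2-fold higher and -1 for a 2-fold lower signal in the cold. The 12°C RNA carried Cy5 on 5 of the 6 arrays and Cy3 on VIN7 C. In W27 all arrays had the same orientation, so dye and temperature cannot be told apart there.

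Over all ORFs the arrays of a strain did not all run together. W27 B and W27 C correlated with r = 0.80 over 3938 ORFs, whereas W27 A correlated with them at -0.14 and -0.19. VIN7 B was nearly unrelated to VIN7 C (r = 0.06). VIN7 A correlated with VIN7 B and C at 0.36 and 0.37, below its coefficients with W27 B (0.66) and W27 C (0.61). With W27 B and C, VIN7 B reached 0.305 and 0.346, and VIN7 C 0.07 and 0.09. The spread over ORFs also differed, with an SD from 0.39 on VIN7 C to 1.71 on VIN7 B. These coefficients are across genes, which are not independent replicates. Results for W27 are given with and without array A for this reason.

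Among the stress defence genes, 17 had a value on all 6 arrays, 23 on all VIN7 arrays and 27 on all W27 arrays. At least 2 values were present for 39 genes in VIN7, for 37 in W27 and for 37 in both strains. Of the 6 that fell short in a strain, YGR209C had a single value in all (0.60 on VIN7 C), and *GRX2* had 1 in each strain. Missing values made up 18.2% of the entries of these genes and 16.8% of those of all ORFs. The map of the log2 ratios by gene and array shows the values in full.

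**Figure D1:**
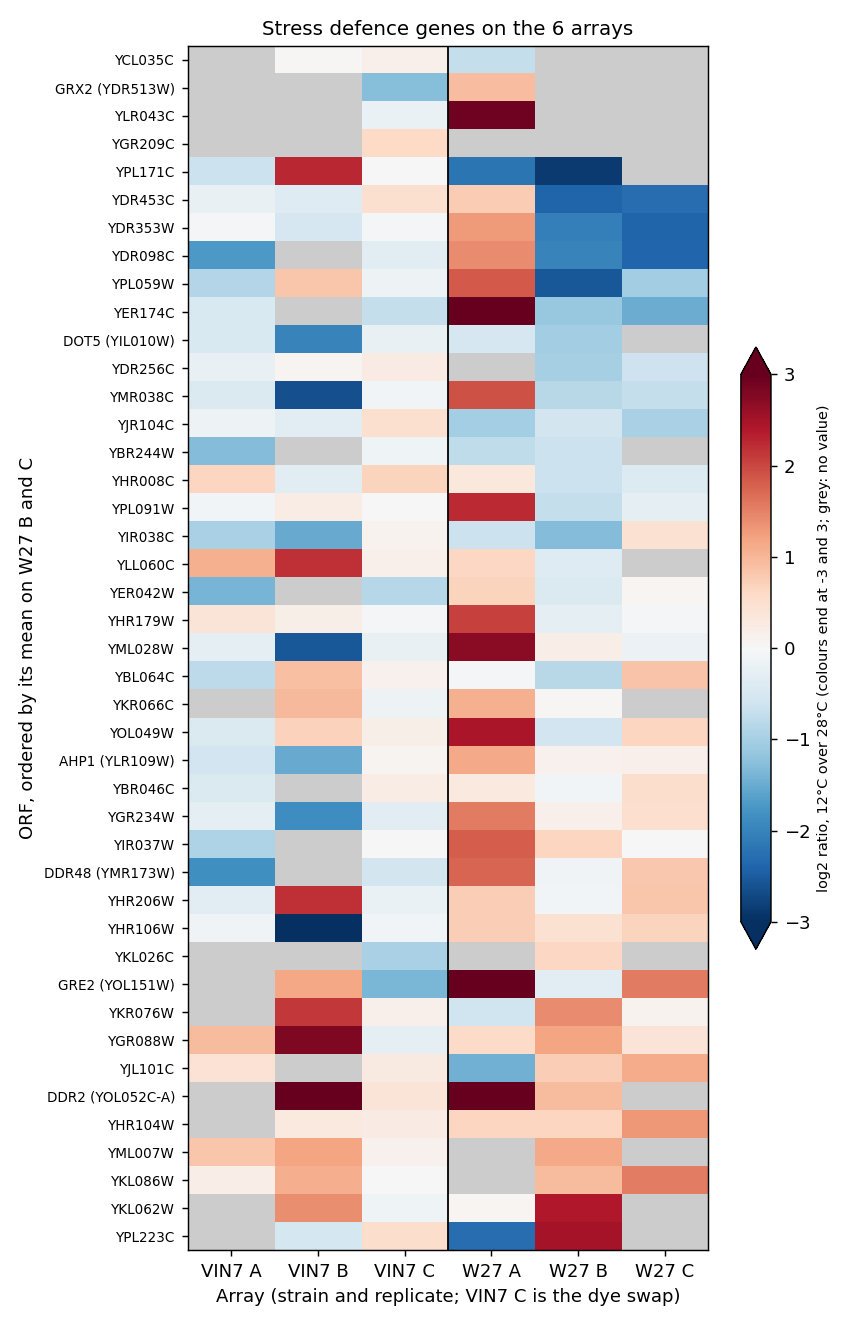
Log2 ratios (12°C over 28°C, colour) of the 43 stress defence genes with a row (vertical axis, ordered by their mean on W27 B and C) on the 6 arrays (horizontal axis), with missing values in grey. The block of genes that is blue on W27 B and C is mostly red on W27 A, and the pale VIN7 C column reflects the small spread of that array.

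Taken as a group, the stress defence genes did not move in a common direction in either hybrid. In VIN7 they lay mostly below 0 on array A, where 7 were above 0 and 24 below, mostly above 0 on array B (19 above and 12 below) and near 0 on array C (19 above and 23 below). Their medians were -0.33, 0.21 and -0.02 on these arrays, beside -0.01, 0.06 and -0.01 over all ORFs. The 3 VIN7 arrays thus put the middle of the group on different sides of 0.

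In W27 the array that stood apart over the whole genome also stood apart here. On W27 A 28 of 38 genes were above 0 (73.7%, against 47.1% of all ORFs), and their median was 0.75 beside -0.11 over all ORFs. On W27 B 16 of 39 were above 0, with a median of -0.30 beside -0.05. On W27 C 17 of 29 were above 0, with a median of 0.11 beside 0.08. The middle of the group thus lay farther above that of all ORFs on array A than on array C, and below it on array B.

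When each gene was reduced to its median over the arrays of a strain, the middle of the group was -0.06 in VIN7, 0.11 in W27 and 0.02 in W27 without array A, where that of all ORFs was -0.01, -0.01 and 0.00275. The same sign on every array of a strain was seen in VIN7 for 8 genes above and 12 below 0 (51.3%, against 47.1% of ORFs). In W27 it was seen for 10 genes above and 5 below (40.5%, against 37.9%), so the share of genes with a steady sign was close to that of all ORFs in both hybrids.

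**Figure D2:**
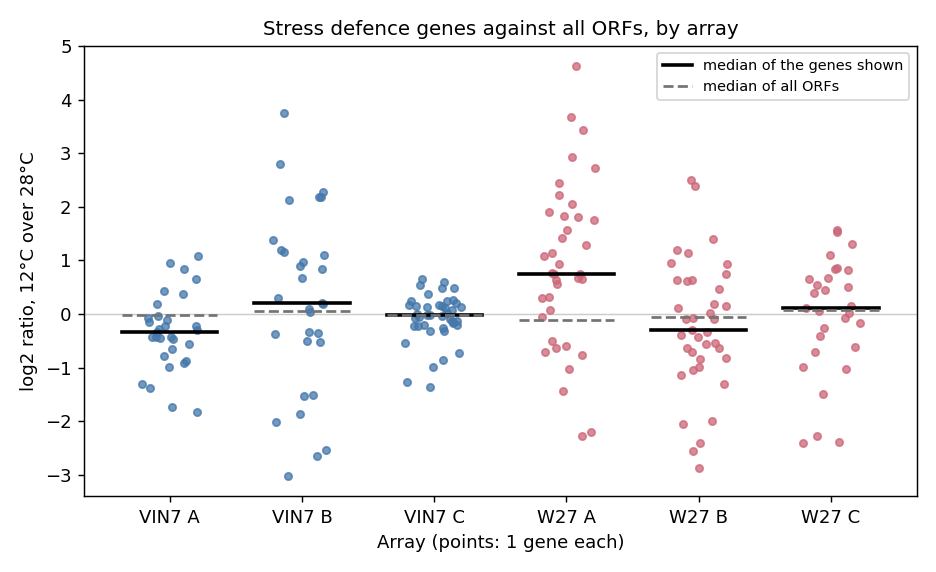
Log2 ratio of each measured stress defence gene (points) on each array, with the median of these genes (solid line) and of all ORFs (dashed line). The 2 medians lie farthest apart on W27 A (0.75 and -0.11) and almost coincide on VIN7 C.

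The spread of the group followed that of the array. At least 2-fold ratios were seen for 16.1%, 54.8% and 4.65% of the stress defence genes on arrays A, B and C of VIN7 and for 55.3%, 33.3% and 31.0% on those of W27. The corresponding shares of all ORFs were 17.6%, 48.9% and 1.4%, and 49.9%, 29.1% and 29.7%. As deposited, the ratios of the group ran from -3.02 (YHR106W on VIN7 B) to 4.62 (YER174C on W27 A), the latter on the array that runs against its replicates. Within the group, W27 B and C correlated with r = 0.73 over 29 genes, and VIN7 A and C with r = 0.47 over 31. The other pairs of a strain were lower. VIN7 B correlated with VIN7 A at 0.38 (23 genes) and with VIN7 C at -2.91e-04 (31 genes). W27 A correlated with W27 B at -0.11 (35 genes) and with W27 C at -0.165 (27 genes).

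When limma was used to test each mean against 0, with adjustment over all ORFs (5% false discovery rate), none of the stress defence genes was called in either hybrid. In VIN7 0 of 39 tested genes passed, as did 0.0% of the 5100 ORFs tested. In W27 0 of 37 passed, with 0.0% of 4894 ORFs, and for the difference between the strains (W27 minus VIN7) 0 of 37 passed, with 0.0% of 4670 ORFs. The smallest adjusted p was 0.61 in VIN7, 0.66 in W27 and 0.89 for the difference. An unadjusted p under 0.05 was given by limma to 1 of the genes in VIN7, 2 in W27 and 3 for the difference, and to 279, 356 and 147 of all ORFs. The arrays may stem from fewer fermentations than their number, so the p-values measure only the spread between these samples.

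As a description without a test, genes were then listed whose median log2 ratio reached 1 or -1 with the same sign on every array of the strain that measured them. In VIN7 this held for 3 stress defence genes in the higher and 3 in the lower direction, of 39, where 3.67% and 3.69% of all ORFs did so. In W27 3 genes were higher and 1 was lower, of 37, beside 5.93% and 5.91% of all ORFs. All genes so listed in W27, and all but YLL060C in VIN7, had values on 2 arrays only, where the same sign is easier to reach. *DDR2* was higher by this rule in both hybrids, the only gene of the group so listed. In what follows, 3 numbers given for a strain are those of arrays A, B and C in that order.

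*DDR2*, a gene that heat, DNA damage and other stresses induce, was measured on 2 arrays of each strain. Its log2 ratio was 3.75 on VIN7 B and 0.38 on VIN7 C, a mean of 2.07 ± 2.38 (SD, n = 2). In W27 it was 3.68 on array A and 0.94 on array B, a mean of 2.31 ± 1.94 (SD, n = 2). All 4 values were above 0 and the strains overlapped, but the 2 values of each strain lay far apart. limma gave it an adjusted p of 0.61 in VIN7 and 0.66 in W27, and only W27 B remains in W27 when array A is left out. With array weights (described below), which rested mainly on W27 B here, its W27 estimate was 1.08 (limma adjusted p = 0.041).

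*DDR48*, another stress-induced gene named for its response to DNA damage, was below 0 on both VIN7 arrays that measured it and above 0 on 2 of the 3 W27 arrays. In VIN7 its log2 ratio was -1.83 on array A and -0.54 on array C (mean -1.19 ± 0.91, SD, n = 2). In W27 it was 1.75, -0.10 and 0.82 (mean 0.82 ± 0.92, SD, n = 3). All W27 values lay above both VIN7 values. The difference of 2.01 ± 0.78 (SE) had an unadjusted limma p of 0.038 and an adjusted p of 0.89, and it was 1.55 without W27 A (adjusted p = 0.54). Over all settings its adjusted p ranged from 0.14 to 0.99.

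*GRE2*, which encodes an NADPH-dependent methylglyoxal reductase, gave the widest range of the named genes in W27. Its log2 ratios in W27 were 3.44, -0.33 and 1.57 (mean 1.56 ± 1.88, SD, n = 3). In VIN7 it was 1.17 on array B and -1.36 on the dye-swapped array C, a mean of -0.10 ± 1.79 (SD, n = 2). The values of the strains overlapped, and the sign was mixed within each strain.

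*AHP1*, coding for a peroxiredoxin that reduces alkyl hydroperoxides, was above 0 on every W27 array, at 1.15, 0.12 and 0.15 (mean 0.47 ± 0.59, SD, n = 3). In VIN7 it was -0.57, -1.52 and 0.085 (mean -0.67 ± 0.81, SD, n = 3). Each W27 value exceeded each VIN7 value, although W27 B and VIN7 C differed by little. The difference of 1.14 ± 0.62 (SE) did not pass (limma adjusted p = 0.89). It was 0.71 without VIN7 B and 0.37 if W27 A was turned in sign, where the W27 mean was -0.29.

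*DOT5*, a nuclear thiol peroxidase gene, was below 0 on every array that measured it in both strains. It was -0.47, -2.01 and -0.21 in VIN7 (mean -0.90 ± 0.97, SD, n = 3) and -0.49 and -1.04 on W27 A and B (mean -0.77 ± 0.38, SD, n = 2). The strains overlapped, and limma's adjusted p was 0.61 in VIN7 and 0.74 in W27, or 0.045 in W27 with array weights, resting mainly on W27 B. *GRX2* had 1 value per strain, -1.27 on VIN7 C and 0.93 on W27 A, and allowed no test. The plot of the 6 named genes shows how far the replicates of a strain lay apart.

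**Figure D3:**
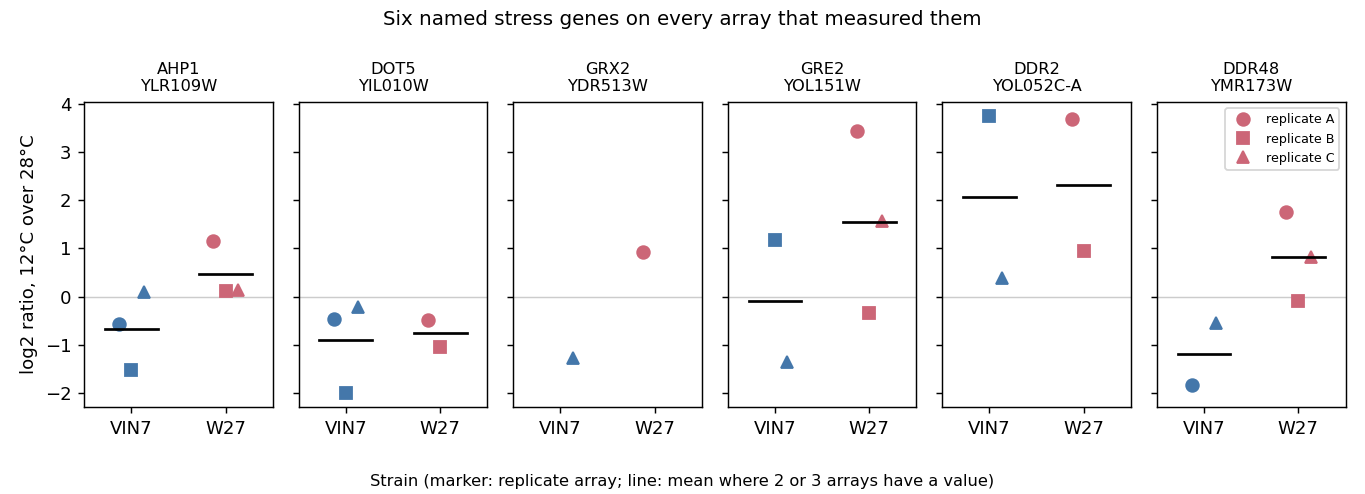
Log2 ratio (12°C over 28°C) of the 6 stress genes with a name, by strain, with the marker giving the replicate array and the line the mean where a strain has 2 or 3 values. *DDR2* lies above 0 and *DOT5* below 0 on every array that measured them, and all *DDR48* values of W27 lie above those of VIN7.

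The other genes that passed the 2-fold description in VIN7 were YLL060C and YKR076W in the higher and YDR098C and YER042W in the lower direction. YLL060C was 1.08, 2.18 and 0.14 in VIN7 (mean 1.13 ± 1.02, SD, n = 3) and 0.63 and -0.40 on W27 A and B. YKR076W was 2.12 on VIN7 B and 0.15 on VIN7 C, and -0.60, 1.41 and 0.11 in W27. In both, the highest VIN7 value was that of array B, where the ratios of all ORFs spread widest.

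YER042W was -1.38 on VIN7 A and -0.86 on VIN7 C (mean -1.12 ± 0.37, SD, n = 2), with an unadjusted limma p of 0.047 (adjusted p = 0.61). In W27 it was 0.67, -0.43 and 0.05, all above the VIN7 values. YDR098C was -1.73 on VIN7 A and -0.31 on VIN7 C, and 1.41, -2.00 and -2.38 in W27. For YDR098C the strains overlapped, and W27 A was the only array above 0.

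In W27 the description also listed YKL086W, YKL062W and YPL171C. YKL086W was 0.96 and 1.53 on W27 B and C (mean 1.24 ± 0.41, SD, n = 2) and 0.19, 1.10 and 0.02 in VIN7, above 0 on all 5 arrays. YKL062W was 0.07 on W27 A, 2.39 on W27 B, 1.39 on VIN7 B and -0.13 on VIN7 C, so that its W27 median rested on array B.

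YPL171C was -2.20 on W27 A and -2.86 on W27 B (mean -2.53 ± 0.47, SD, n = 2). In VIN7 it was -0.65, 2.27 and -0.01 (mean 0.54 ± 1.53, SD, n = 3). Its unadjusted limma p was 0.0083 in W27 and 0.015 for the difference of -3.07 ± 0.95 (SE), and its adjusted p was 0.66 and 0.89. With array weights (described below), which rested mainly on W27 B here, its W27 estimate was -2.83 (limma adjusted p = 1.3e-05). After turning W27 A, its W27 mean was -0.33 and the difference -0.87.

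Leaving out W27 A changed the count of calls. Tested on W27 B and C alone, 12 of 29 stress defence genes passed limma at an adjusted p under 0.05, 4 in the higher and 8 in the lower direction. Of the 3938 ORFs tested on these arrays, 19.5% passed as higher and 19.6% as lower, so calls were frequent among all ORFs and the count of these genes is to be read against that. With 2 arrays of the same dye orientation, what they share through dye or culture cannot be told apart from the temperature.

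The 8 genes lower at 12°C on W27 B and C had means from -2.34 to -0.76. The lowest was YDR453C, at -2.40 and -2.28 on W27 B and C (adjusted p = 4.0e-04), against 0.76 on W27 A and -0.23, -0.38 and 0.48 in VIN7. YDR353W was -2.04 and -2.40 on W27 B and C (adjusted p = 4.48e-04), 1.28 on W27 A and -0.04, -0.50 and -0.06 in VIN7. YDR098C, described above, had a mean of -2.19 on W27 B and C with the same adjusted p. In these 3 genes W27 A had the opposite sign. By their ORF names, these 3 and YDR256C, described below, lie on chromosome 4. There 50.1% of ORFs were below 0 on both W27 B and C, against 39.4% of all ORFs. The medians of that chromosome were -0.34 on W27 B and -0.22 on W27 C. The share was higher on chromosomes 1, 2 and 3 (58.1%, 59.4% and 61.3%). Whether a shift of the whole chromosome bears on these genes was not tested.

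YPL059W was -2.55 and -1.03 on W27 B and C (adjusted p = 0.0036), 1.83 on W27 A and -0.87, 0.83 and -0.16 in VIN7. YER174C was -1.13 and -1.49 on W27 B and C (adjusted p = 0.0041), -0.46 on VIN7 A and -0.73 on VIN7 C. On W27 A it was 4.62, so that its W27 mean was 0.67 as deposited, -1.31 without array A and -2.41 with the sign of array A turned. YMR038C was -0.84 and -0.71 on W27 B and C (adjusted p = 0.037), 1.90 on W27 A and -0.43, -2.64 and -0.07 in VIN7.

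YDR256C was -0.995 and -0.62 on W27 B and C (adjusted p = 0.035), without a value on W27 A, and -0.23, 0.09 and 0.25 in VIN7. YJR104C was -0.55 and -0.98 on W27 B and C (adjusted p = 0.044), -1.02 on W27 A, and -0.15, -0.35 and 0.49 in VIN7. YJR104C was the only one of the 8 that W27 A also placed below 0, and 6 were above 0 there.

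The 4 genes higher at 12°C on W27 B and C were YKL086W (mean 1.24, adjusted p = 0.0061), YHR104W (0.97, adjusted p = 0.020), YJL101C (0.93, adjusted p = 0.019) and YGR088W (0.79, adjusted p = 0.0499). YHR104W was 0.65, 0.64 and 1.31 in W27 and 0.30 and 0.24 on VIN7 B and C, above 0 on all 5 arrays. YGR088W was 0.57, 1.20 and 0.39 in W27 and 0.95, 2.80 and -0.27 in VIN7, with only the dye-swapped array below 0. YJL101C was 0.75 and 1.10 on W27 B and C, -1.44 on W27 A and 0.42 and 0.26 on VIN7 A and C. Over all W27 settings the adjusted p of each of the 12 genes reached 1.0, and the 12 calls rest on leaving out array A or giving it little weight. YDR256C and YKL086W had no value on W27 A, so their means were the same with and without it. Only their SE fell, from 0.54 to 0.26 and from 0.55 to 0.27, since limma also draws on the spread over all ORFs.

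**Figure D4:**
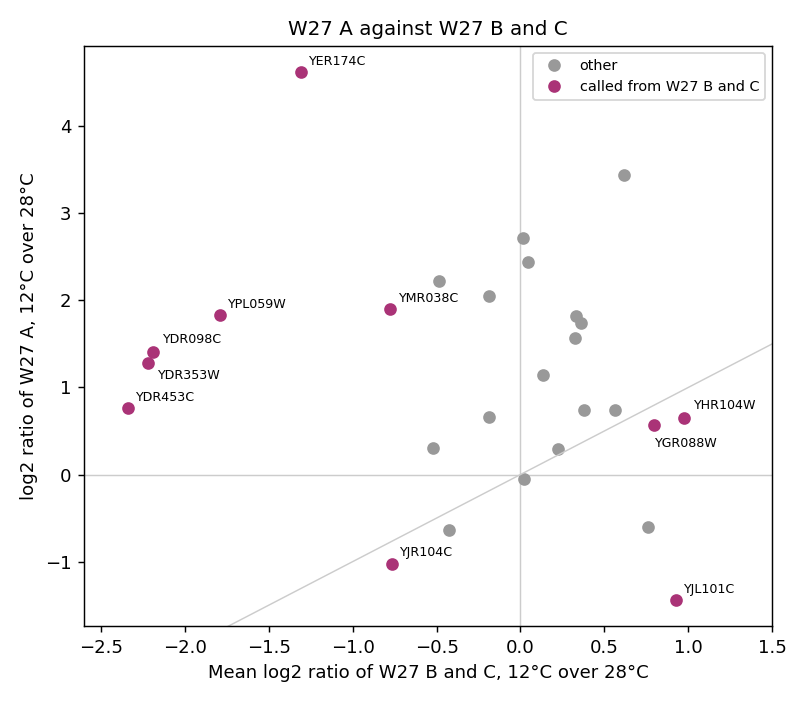
Log2 ratio on W27 A (vertical axis) against the mean of W27 B and C (horizontal axis) for the 27 stress defence genes with all 3 values. The sloping line marks equal values, and purple marks genes called by limma from W27 B and C. Most purple genes left of 0 lie above 0 on W27 A.

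Of the 29 genes with values on W27 B and C, 20 had the same sign on both (69.0%, against 78.7% of 3938 ORFs). Of the 18 of them that were also on W27 A, 11 had the opposite sign there (61.1%, against 59.4%). The opposed signs of W27 A were thus about as frequent among the stress defence genes as among all ORFs. limma with array weights, which gave W27 A a weight of 0.16 beside 2.94 and 2.15 for B and C, called 7 of 37 genes as higher and 8 as lower, where 16.8% and 18.8% of 4894 ORFs were called. Of these 15, 10 were among the 12 genes called without W27 A. The other 5, *DDR2*, *DOT5*, YPL171C, YPL223C and YKL062W, had no value on W27 C, so their weighted estimates rested mainly on W27 B. YPL223C was called as higher at 2.25 (limma adjusted p = 5.28e-04), although it was -2.28 on W27 A and 2.497 on W27 B.

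The response of a gene was then compared between the hybrids by whether the arrays of the strains overlapped. Of the 37 genes with at least 2 values in each strain, 8 had every W27 array above every VIN7 array (8.99% of 4670 ORFs did) and 3 had every W27 array below (9.81% of ORFs). The 8 were YML028W, *AHP1*, YIR037W, YHR106W, *DDR48*, YHR104W, YER042W and YGR234W, and the 3 were YDR256C, YJR104C and YPL171C. None of these differences passed limma's adjusted threshold (adjusted p = 0.89 for each).

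These counts depended on single arrays of both strains. Without W27 A 9 of 29 genes lay above (17.8% of ORFs did) and 10 below (19.7%). The 8 genes just named were among the 9 by construction, since leaving out an array cannot undo such a separation. After turning W27 A, 3 of 37 lay above (10.7% of ORFs) and 8 below (9.14%). YER042W was the only gene of the 8 that stayed above. YDR256C was the only one of the 3 that stayed below, but it had no value on W27 A, so the turn could not change it. These settings were added after the data were seen.

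YIR037W, YHR106W and YGR234W were below 0 on every VIN7 array and above 0 on every W27 array that measured them. YIR037W was -0.92 and -0.02 on VIN7 A and C and 1.82, 0.64 and 0.02 in W27, so that the nearest arrays of the strains almost met. YHR106W was -0.12, -3.02 and -0.09 in VIN7 and 0.74, 0.47 and 0.67 in W27. Its W27 values lay close together (SD 0.14, n = 3), while its VIN7 mean rested on array B.

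YGR234W was -0.29, -1.87 and -0.32 in VIN7 (mean -0.82 ± 0.90, SD, n = 3) and 1.57, 0.14 and 0.50 in W27 (mean 0.74 ± 0.74, SD, n = 3). The difference of 1.56 ± 0.67 (SE) had an unadjusted limma p of 0.047. YML028W was -0.27, -2.53 and -0.22 in VIN7 and 2.72, 0.20 and -0.17 in W27. In YML028W the separation was narrow, with W27 C just above VIN7 C.

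**Figure D5:**
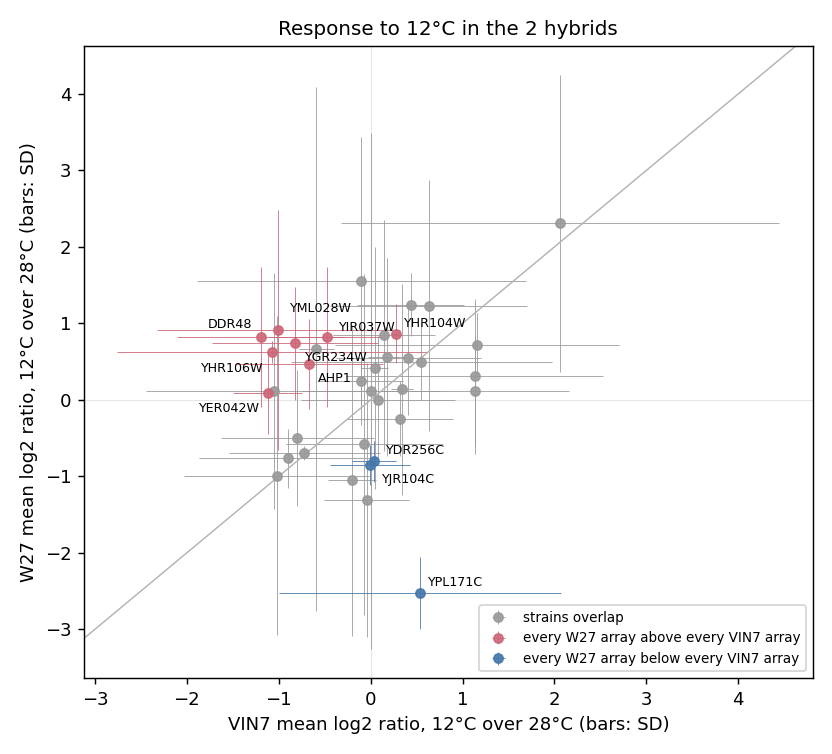
Mean log2 ratio (12°C over 28°C) of 37 stress defence genes in W27 (vertical axis) and VIN7 (horizontal axis), with bars of 1 SD over 2 or 3 arrays. The line marks equal means, red marks the 8 genes whose W27 arrays all lie above those of VIN7, and blue marks the 3 whose W27 arrays all lie below.

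With array weights, limma called 2 of the 37 genes for the difference between the strains, both lower in W27. YDR453C had a weighted difference of -2.27 (adjusted p = 0.038) and YDR353W of -2.04 (adjusted p = 0.049). Of the 4670 ORFs tested, 0.171% were called as higher in W27 and 0.621% as lower. The adjusted p of both reached 0.99 under other settings, and neither was called when W27 A was left out (0.54). Both genes lie on chromosome 4, as described above.

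The 16 genes not described singly with all their values had means on both sides of 0. Of the 13 with at least 2 VIN7 values, 10 had a mean above 0 and 3 below, from -0.80 for YIR038C to 0.72 for YML007W. Of the 11 with at least 2 W27 values, 7 were above 0 and 4 below, from -0.70 for YBR244W to 0.84 for YOL049W. YML007W was above 0 on all 4 arrays that measured it, at 0.84, 1.19 and 0.13 in VIN7 and 1.15 on W27 B. YBR244W was below 0 on all 4 of its arrays, at -1.30 and -0.14 on VIN7 A and C and -0.76 and -0.63 on W27 A and B. YPL223C was an example of the opposite kind, with -2.28 on W27 A and 2.497 on W27 B.

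A list of 22 further ORFs of oxidative defence and a list of 27 general stress ORFs served as context, and 20 and 25 of them had a row. With all arrays, limma called 0 of 18 oxidative defence ORFs in VIN7 and 0 of 15 in W27, and 0 of 23 and 0 of 22 general stress ORFs. On W27 B and C alone, 3 of 12 oxidative defence ORFs were called (1 higher and 2 lower) and 4 of 14 general stress ORFs (2 higher and 2 lower), where 39.1% of all ORFs were called. The same sign on both arrays was seen for 12 of 12 oxidative defence ORFs, 3 above and 9 below 0, for 10 of 14 general stress ORFs and for 78.7% of all ORFs, and the difference between the lists was not tested. *GTO1* (YGR154C), a glutathione transferase gene of the first list, was below 0 on all 5 arrays that measured it, at -0.69 and -0.10 on VIN7 A and C and -1.69, -0.57 and -0.49 in W27 (limma adjusted p = 0.68 in VIN7 and 0.70 in W27). *HSP12* (YFL014W), a membrane-protecting heat shock gene of the second list, was measured on VIN7 C (-1.43) and W27 A (1.43) only.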

How the data were processed

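RNA from fermentations of VIN7 and W27 at 12°C and 28°C was compared on 6 dual-colour arrays. The authors corrected the background with GenePix, normalized and filtered each array in Acuity with print tip correction, and deposited log2 ratios of 12°C over 28°C. The Methods give the target of this normalization as a log2 ratio of 1, which leaves the centring of the deposited values unclear, and scanner intensities were left aside. The values were used as deposited, VIN7 C in its deposited direction (r = 0.17 with the average of the other VIN7 arrays). No other column was present, and the number of arrays limits the precision.

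Each strain's mean was tested against 0, and W27 minus VIN7 was tested, with limma 3.58.1 in R 4.3.3 for ORFs with at least 2 values per strain, with Benjamini-Hochberg adjustment over all of them (5%). Every adjusted p comes from these models. With 3 arrays an exact sign-flip test (two-sided) gives no p below 0.25, and with 3 against 3 an exact permutation test gives none below 0.1, so they were not run. Genes given with all values passed the 2-fold description, had a name in the study's supplementary table, did not overlap between strains, or were called without W27 A. The regulators were also to be given, but the study's supplementary table did not pair them with ORFs. Gene names of members were taken from that table only. The members and lists were chosen with earlier results of these data known, and the ORFs of the other lists were written from general knowledge. Alternatives were median centring, scaling to a common spread, complete values, 1 joint model of both strains, array weights, a term for dye, a replicate block, stricter thresholds, the mean for the median, turning VIN7 C or W27 A, and leaving out each array. Promoter sequences were not analysed here.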

Additional observations from a re-analysis of the deposited data

Results flagged for a closer look

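The difference between the hybrids (W27 minus VIN7) stood out in 3 genes because every VIN7 array lay below 0 and every W27 array above 0. It was 1.295 in YIR037W, 1.698 in YHR106W and 1.563 in YGR234W, on the log2 scale. The difference itself was tested with limma and did not pass in any of them (adjusted p = 0.89 for each). Such opposite signs were found in 3 of 37 stress defence genes (8.11%) and in 5.48% of all ORFs. In YIR037W, YHR106W and YGR234W in turn, the difference was 0.80, 1.64 and 1.15 without W27 A. With W27 A turned in sign it was 0.08, 1.20 and 0.52. That turn put W27 A below 0 in all 3, so it had to undo their opposite signs. Without VIN7 B the difference was 0.73 in YHR106W and 1.04 in YGR234W. It stayed at 1.295 in YIR037W, which had no value on VIN7 B. Between arrays of the same dye orientation, without the dye-swapped VIN7 C, the difference was 1.75, 2.19 and 1.82 in turn. For YIR037W the VIN7 side then rested on array A alone.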

How the results depend on the processing

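Under every setting run, limma called 0 genes in VIN7. In W27 the calls over all ORFs ranged from 0 to 1540 when an array was left out (1540 without A, 2 without C) and those of stress defence genes from 0 to 12 (without A), while array weights gave 1743 and 15. For W27 minus VIN7, array weights gave 37 ORFs and 2 stress defence genes, and every other setting gave 0. Joint models with and without a dye term called 0 in either strain. With the dye term, which rests on VIN7 C alone, 79 ORFs in VIN7 and 43 in W27 had an unadjusted p under 0.05, and without it 174 and 487 (smallest adjusted p 0.84 and 0.095). The same letters of the strains did not deviate together (correlations of -0.11, 0.11 and -0.26 for A, B and C over 2674 ORFs), so they were not taken as pairs, and the fit with a replicate block called 0 ORFs and 0 stress defence genes (smallest adjusted p 0.98, with 119 ORFs at an unadjusted p under 0.05).

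The counts past the 2-fold description moved more. In VIN7, where 375 ORFs and 6 stress defence genes passed, they were 163 and 1 with VIN7 C turned, 696 ORFs with scaling, 43 and 1 at a log2 ratio of 2, and from 217 to 784 ORFs and 3 to 10 genes when an array was left out (lowest without B, highest without C). In W27, where 579 and 4 passed, they were 980 and 8 with W27 A turned, 75 and 2 at a log2 ratio of 2, and from 576 to 1015 ORFs (without A) and 5 to 6 genes when an array was left out. *DDR2* (YOL052C-A) had a mean of -1.37 in W27 with W27 A turned, in place of 2.31. The means of 17 of 37 genes in W27 changed sign with W27 A turned, and those of 9 of 39 in VIN7 without VIN7 B. Why these values moved was not tested beyond what each setting changes by itself.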
